A study of Mus musculus with 18 samples.

Results

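Here 8 long noncoding RNAs are described in single cells of the mouse ileum with and without the histone methyltransferase Setdb1: Neat1 and Malat1, which stay in the nucleus, and Snhg3, Snhg4, Snhg1, Snhg12, Dancr and Gas5, whose introns carry small nucleolar RNAs (snoRNAs). They are 8 of the 32286 features in the count tables. The members were chosen by their measured levels in these data, on 2 measures, the level in stem and dividing cells against mature cells and the level in Setdb1-KO against WT, so both of these are given as descriptions without a p-value. For each measure, the unique molecular identifiers (UMIs) of a gene were summed over the cell barcodes of a class in a library and scaled to 1000000 UMIs of that sum (CPM). Counts are of RNA ends and were not divided by gene length, so levels are compared between cells and not between genes.

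GFP+ cells were sorted from the ileum of C57Bl6 mice 60 to 65 days old, 5 days after tamoxifen (70 mg/kg), which all groups received. In the first experiment, the Lgr5+ cells came from Lgr5-GFP-CreERT2 mice (Lgr5+WT) and from Lgr5-GFP-CreERT2/Setdb1lox/lox mice (Lgr5+Setdb1KO), and GFP stood under the Lgr5 promoter. In the second, the same pair of genotypes also carried nTnG, a reporter that turns from tdTomato to GFP after Cre has acted, so that Lgr5+ cells and their progeny were sorted (lineage-traced WT and Setdb1-KO). The WT mice thus carry the Lgr5 knock-in allele, Cre and tamoxifen as the KO mice do. This allele is silent in some crypts, so the sorted cells are a part of the epithelium. For the Lgr5+ sort, the paper describes mature cells as co-purified cells without GFP, so the mature classes there need not carry the deletion. Each of the 4 groups had 2 libraries.

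Neat1 is the RNA scaffold of paraspeckles, nuclear bodies built with the proteins Nono and Sfpq, and Malat1 is an abundant RNA of the nuclear speckles that hold splicing factors. A snoRNA host gene is transcribed by RNA polymerase II and spliced. Its introns release snoRNAs that guide methylation or pseudouridylation of ribosomal RNA, and in many hosts the spliced exons encode no protein and are removed by nonsense-mediated decay. Many hosts share with ribosomal protein genes a transcript that begins with a run of pyrimidines, the terminal oligopyrimidine (TOP) start, and the translation of such transcripts rises in growing cells. In the intestinal crypt, Lgr5+ stem cells and their dividing progeny make ribosomes for growth, while goblet, Paneth, tuft and enteroendocrine cells and enterocytes have left the cycle.

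In the GRCm38 annotation, Neat1 covers chr19:5824708-5845480 and Malat1 lies 22036 bases away at chr19:5795690-5802672, with the small RNA gene Mascrna inside it. Gas5 at chr1:161034601-161038539 and Snhg1 at chr19:8723487-8726326 hold 8 snoRNA entries each. Snhg12 at chr4:132308678-132311024 holds 4 (Snora16a, Snora44, Snora61 and Snord99), and Snhg3, on the same chromosome at chr4:132351933-132353686 holds Snora73a and Snora73b. Dancr at chr5:74093060-74094337 holds Snora26 and Snhg4 holds Snora74a. The counted reads come from the spliced, polyadenylated hosts, and the snoRNAs themselves were not measured. Gas5 overlaps Zbtb37, whose level is given with those of other neighbours.

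The RefSeq promoter table (GRCm38.p6) held 7 start windows for 6 of the 8 genes, and none for Neat1 or Snhg4. The 60 bases around an annotated start, 30 of them upstream, are shown for 5 hosts, with both starts of Gas5, because the start is what places a host among the TOP genes. Capitals mark the unbroken run of C or T that covers the first transcribed base, on the strand of the gene.
Gas5, first annotated start, chr1:161034571-161034630, + strand: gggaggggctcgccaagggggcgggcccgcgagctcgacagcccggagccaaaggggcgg
Gas5, second annotated start, chr1:161035136-161035195, + strand: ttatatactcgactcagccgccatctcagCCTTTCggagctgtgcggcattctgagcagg
Snhg12, chr4:132308648-132308707, + strand: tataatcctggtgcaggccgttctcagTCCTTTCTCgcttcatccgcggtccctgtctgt
Snhg1, chr19:8723457-8723516, + strand: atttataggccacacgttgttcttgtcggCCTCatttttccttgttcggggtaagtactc
Snhg3, chr4:132353657-132353716, - strand: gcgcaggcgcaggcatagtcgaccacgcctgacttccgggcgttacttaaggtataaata
Dancr, chr5:74093030-74093089, + strand: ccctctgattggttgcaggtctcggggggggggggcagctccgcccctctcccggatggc

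The run was 6 bases long at the second start of Gas5, 9 in Snhg12 and 4 in Snhg1, and the first base at the first start of Gas5, and in Snhg3 and Dancr as annotated, was not a C or T. A run of at least 5 bases covered the first base in 3330 of 32851 promoters in the table (10.1%). In windows of 300 bases, read on both strands, the letters CCGGAAG were found in Snhg3 among the members and in 8.86% of all promoters, TATAAA in Snhg3 and Snhg1 and in 13.6%, and CACGTG in no member and in 7.15%. These are matches of letters to an annotated start, which need not be the start used in the ileum.

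Barcodes with 1000 (Lgr5+) or 500 (lineage-traced) to 18000 UMIs and under 5% mitochondrial (mt-) UMIs were kept, 52015 in all and 2894 to 11423 per library. Libraries held 16881518 to 81876035 UMIs, and the median kept barcode had 4686 to 9336 UMIs in Lgr5+ libraries and 961 to 2085 in lineage-traced ones. Each kept barcode was placed by its marker UMIs in 1 of 7 epithelial classes, and 16.4 to 21.0% of Lgr5+ and 39.0 to 66.5% of lineage-traced barcodes got no class. The second lineage-traced WT library stands apart, with 420685 barcodes of 10 to 100 UMIs against 11998 to 39546 in the other lineage-traced libraries and with the highest unclassed share, and values without it are given where it matters. Paneth cell markers made up 23.5 and 21.9% of the UMIs of kept barcodes in lineage-traced WT, 5.44 and 3.78% in lineage-traced Setdb1-KO and 0.747 to 2.66% in the Lgr5+ libraries. Setdb1 itself was at 11.3 and 9.93 CPM in Lgr5+WT and 5.32 and 6.21 CPM in Lgr5+Setdb1KO (log2 fold change -0.85 ± 0.14 SE, edgeR quasi-likelihood adjusted p = 0.0167), although the deletion removes an exon that counting of RNA ends does not read. Without the first or the second Lgr5+WT library this call was lost (edgeR adjusted p = 0.151 and 0.118), as it was with the replicate number as a block (edgeR adjusted p = 0.0937). In the lineage-traced experiment it was at 6.11 and 4.21 CPM in WT and 10.4 and 7.85 CPM in KO, not lower (adjusted p = 0.607). The level does not check the labels, since the deleted exon is not read, and those are called the libraries labelled Setdb1-KO.

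In the Lgr5+ libraries Neat1 was highest in goblet and enteroendocrine cells, which are secretory, and low in the crypt. In goblet cells of the Lgr5+ libraries it was at 378 and 376 CPM in WT and at 261 and 199 CPM in KO. In non-dividing stem cells the same libraries gave 45.7 and 51.9 CPM in WT and 14.5 and 20.6 CPM in KO. The 4 goblet values lay above all 4 stem values. By the mean of the 4 Lgr5+ libraries the order was goblet 303, enteroendocrine 174, Paneth 117, tuft 76.6, enterocyte 41.8, stem 33.2 and dividing 27.6 CPM, and only the steps from goblet to enteroendocrine and from tuft to enterocyte separated neighbours without overlap. In the lineage-traced libraries enteroendocrine (264 CPM) and goblet cells (241 CPM) again led by their mean, enterocytes stood at 171 CPM, and all neighbours in the order overlapped. The enterocyte mean joins 299 to 300 CPM in WT with 31.5 to 53.6 CPM in the libraries labelled Setdb1-KO. In lineage-traced WT, goblet cells were at 351 to 362 CPM and enteroendocrine cells at 309 to 372 CPM.

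Over stem and dividing cells together, called crypt cells here, against the 5 mature classes, the fitted log2 difference of Neat1 was -2.78 ± 0.07 (SE) in the Lgr5+ and -1.83 ± 0.13 in the lineage-traced experiment, lower in crypt cells of all 8 libraries. All 8 members passed edgeR's test at an adjusted p under 0.05 in both experiments, but so did 73.4% and 52.6% of all genes, and these comparisons belong to the rule by which the genes were chosen.

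Malat1 had another order. It was highest in tuft cells, the chemosensory cells of the epithelium, with 28029 to 34576 CPM in the Lgr5+ libraries, and next in enteroendocrine cells with 22547 to 26538 CPM. Goblet cells had 9127 to 11659 CPM, enterocytes 7570 to 8397 CPM and stem cells 5051 to 7017 CPM. None of these ranges overlapped, while stem, dividing and Paneth cells could not be ordered. The lineage-traced libraries put tuft (68192 to 118996 CPM) and enteroendocrine cells on top as well. Across crypt and mature cells the log2 difference was -0.99 ± 0.10 in Lgr5+ cells. In lineage-traced cells it was -0.61 ± 0.10, and the libraries split by genotype. Both WT libraries had more CPM in crypt than in mature cells (26285 to 26479 against 17827 to 21139 CPM). Both libraries labelled Setdb1-KO had less (27956 to 32168 against 35693 to 38942 CPM). Scaled by library totals alone, the fitted value was 0.07. That scaling moved the median of all genes in this comparison from -0.04 to 0.60, and relative to that median Malat1 was still lower in crypt cells.

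**Figure D1:**
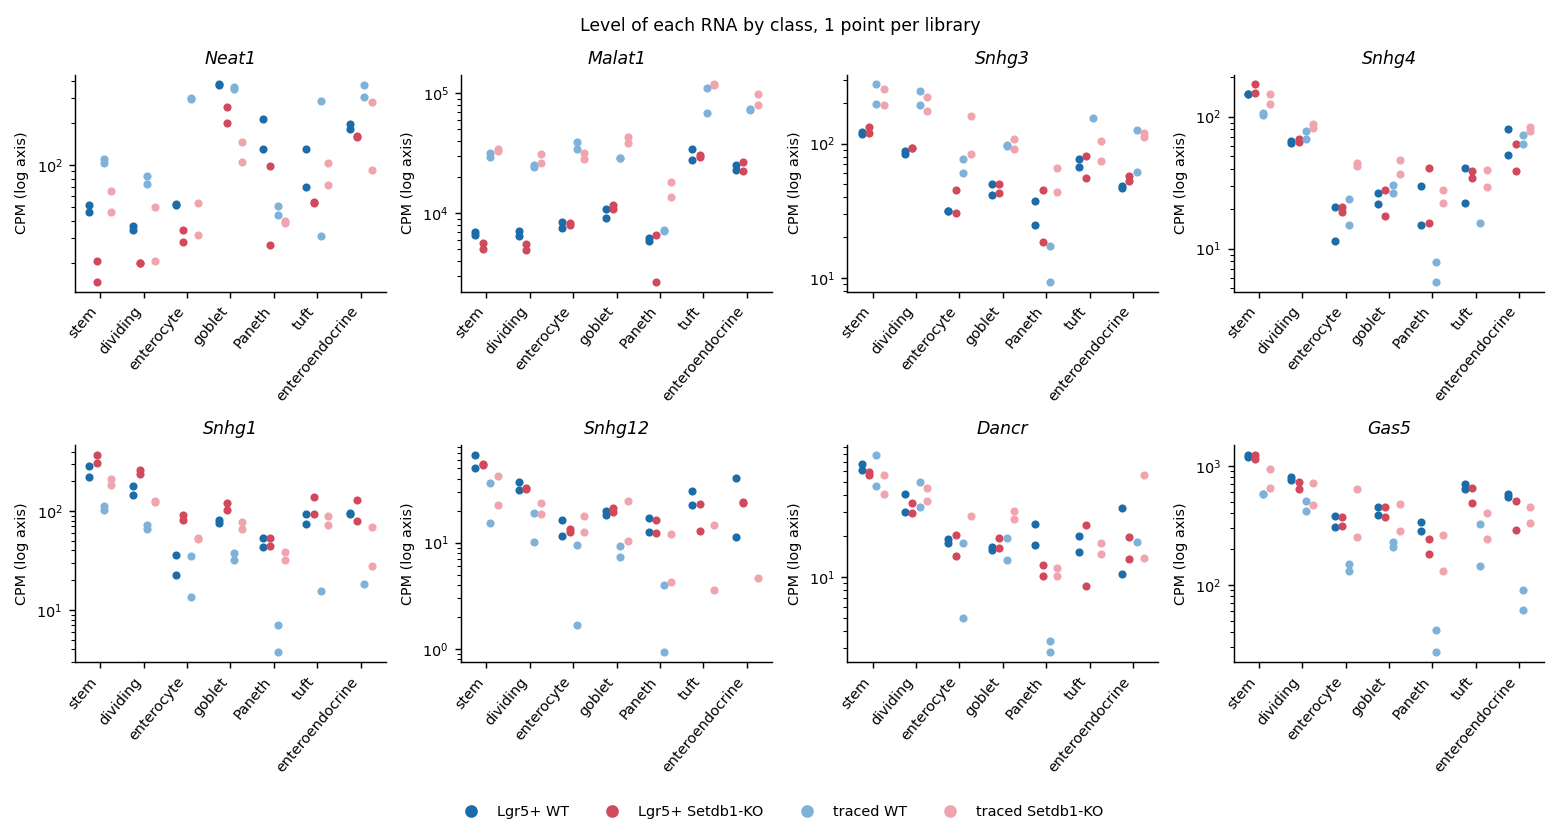
CPM on a log axis of each of the 8 genes in the 7 cell classes, 1 point per library, with Lgr5+ and lineage-traced libraries of WT and Setdb1-KO mice told apart by colour and libraries at 0 not shown. Neat1 peaks in goblet and enteroendocrine cells, Malat1 in tuft cells, and the 6 snoRNA hosts in stem cells followed by dividing cells.

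The 6 snoRNA hosts ran the other way. By the mean over libraries each was highest in stem cells and second in dividing cells, in both experiments. Gas5, the most counted host here and a gene first known from growth-arrested cells, had 1146 to 1238 CPM in stem cells and 640 to 806 CPM in dividing cells of the Lgr5+ libraries. The fitted log2 differences of crypt against mature cells in the Lgr5+ experiment were 1.96 ± 0.11 for Snhg4, 1.53 ± 0.07 for Snhg1, 1.36 ± 0.10 for Dancr, a gene named for holding back differentiation, 1.22 ± 0.06 for Snhg3 and 1.21 for both Snhg12 (± 0.08) and Gas5 (± 0.07). In the lineage-traced experiment they ran from 0.67 ± 0.18 for Snhg12 to 1.22 ± 0.12 for Snhg4. With library totals alone the lineage-traced values of the hosts were larger, 1.33 for Snhg12 to 1.89 for Snhg4 and 1.61 for Gas5. The hosts thus differed in sign from Neat1 in both experiments and from Malat1 in the Lgr5+ one. The sign of Malat1 in lineage-traced cells depended on the scaling and, by CPM, on the genotype.

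The comparison of dividing cells with non-dividing stem cells was not used by the rule, which took these cells together, and was tested. It rests on the same kept barcodes as the rule, and the members and lists were chosen with earlier results of these data known. The dividing class needed cell-cycle markers and no stem marker, so it can hold dividing progenitors as well as dividing stem cells. The comparison therefore does not separate division from the loss of stem identity. All 6 hosts were lower in dividing cells of the Lgr5+ libraries, where 52.0% of all 11786 genes tested were called and 26.5% were called lower (edgeR, adjusted p under 0.05). Snhg4 was at 147 and 148 CPM in stem cells of WT and at 176 and 151 CPM in those of KO, against 65.4 and 62.8 CPM and 67.4 and 64.2 CPM in dividing cells. This fall, in 4 of 4 libraries and with no overlap, was the steepest among the members (log2 fold change -1.28 ± 0.04, edgeR adjusted p = 2.13e-31). Dancr followed with -0.90 ± 0.05 (edgeR adjusted p = 7.91e-20), then Snhg12 with -0.79 ± 0.05 (4.1e-18), Gas5 with -0.74 ± 0.04 (1.16e-11), Snhg1 with -0.57 ± 0.03 (1.92e-20) and Snhg3 with -0.49 ± 0.04 (1.07e-15). Neat1 (-0.29 ± 0.13, edgeR adjusted p = 0.117) and Malat1 (-0.06 ± 0.03, edgeR adjusted p = 0.106) did not pass. For Neat1, 3 of 4 libraries were lower in dividing cells, and the test passed with no low-count filter (-0.26, edgeR adjusted p = 0.000373). With 1 library left out the value moved to -0.12 without the second Lgr5+WT library (edgeR adjusted p = 0.278) and to -0.37 without the first Lgr5+Setdb1KO library, where the test passed (edgeR adjusted p = 2.6e-07).

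In the lineage-traced libraries, with fewer UMIs per barcode, 23.1% of 9161 genes were called and 9.53% were lower in dividing cells. Snhg4 (-0.63 ± 0.09, edgeR adjusted p = 1.03e-09), Snhg1 (-0.62 ± 0.09, 7.95e-11) and Gas5 (-0.36 ± 0.06, 1.3e-08) were again lower. Snhg12 (-0.42 ± 0.18, edgeR adjusted p = 0.0634), Dancr (-0.32 ± 0.13, 0.0514) and Snhg3 (-0.13 ± 0.08, 0.243) did not pass, and Snhg12 ranged with 1 library left out from -0.23 without the first library labelled Setdb1-KO (edgeR adjusted p = 0.533) to -0.61, passing only without the first WT library (-0.58, edgeR adjusted p = 0.0156). With totals alone Snhg12 (-0.47, edgeR adjusted p = 0.0481) and Dancr (-0.36, edgeR adjusted p = 0.0304) passed. Here both nuclear RNAs were lower in dividing cells of 4 of 4 libraries, Neat1 by -0.60 ± 0.12 (edgeR adjusted p = 4.63e-06) and Malat1 by -0.26 ± 0.03 (8.55e-13).

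**Figure D2:**
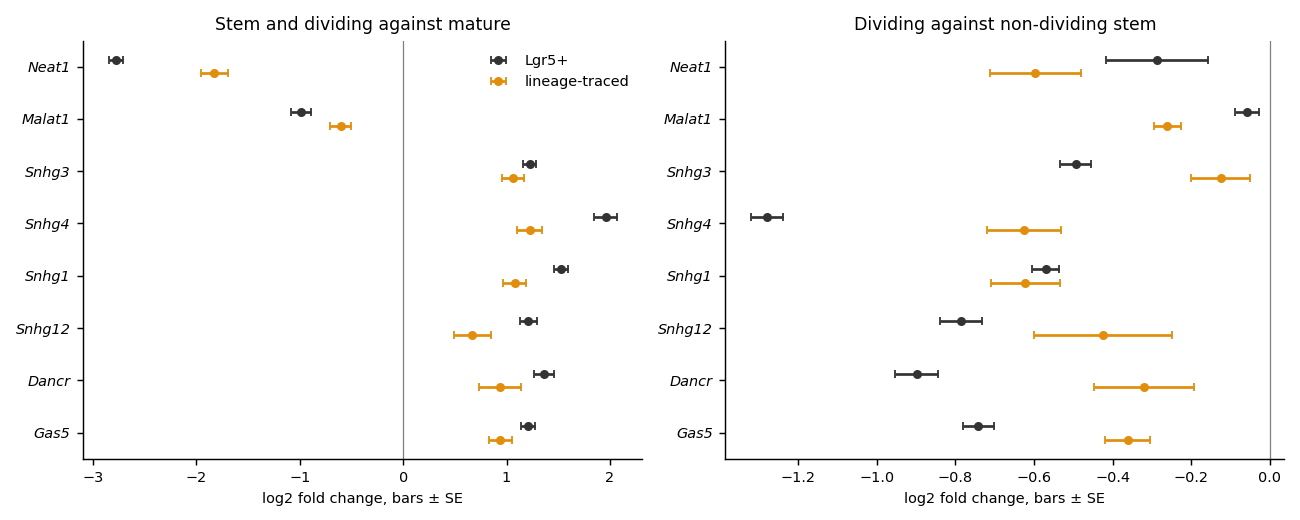
Fitted log2 fold change ± SE of each gene for crypt against mature cells (description only) and for dividing cells against non-dividing stem cells, in each experiment. Neat1 and Malat1 are below 0 and the 6 hosts above 0 in the first comparison, and in the second the Lgr5+ hosts run from -0.49 for Snhg3 to -1.28 for Snhg4.

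CPM is a share, and dividing barcodes carried more UMIs than stem barcodes, so the UMIs per 100 barcodes were also counted. In the Lgr5+ libraries Snhg4 fell from 63.7 to 145 UMIs per 100 stem barcodes to 42.6 to 83.6 per 100 dividing barcodes, lower in 4 of 4 libraries. Snhg12, Dancr and Gas5 were lower per dividing barcode in 4 of 4 libraries too. Snhg3 was higher per dividing barcode in 4 of 4 libraries and Snhg1 in 2 of 4, so that for Snhg3 the lower CPM went with a larger total. Neat1 and Malat1 were higher per dividing barcode in 4 of 4 libraries. In the lineage-traced libraries the counts per barcode did not follow the CPM: Gas5 and Snhg3 were higher per dividing barcode in 3 of 4 libraries, Snhg4, Snhg12 and Neat1 in 2, Snhg1 and Dancr in 1 and Malat1 in 4. The lower CPM of Gas5, Snhg4, Snhg1, Neat1 and Malat1 in dividing cells there is thus a lower share and not a lower count in every library.

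Between genotypes, Neat1 was lower and Snhg1 higher in Setdb1-KO in both experiments. In crypt cells of the Lgr5+ libraries, Neat1 was at 40.0 and 41.8 CPM in WT and at 17.7 and 20.0 CPM in KO (means 40.9 ± 1.30 and 18.8 ± 1.65 CPM, SD, n = 2). The KO values did not reach the WT values, as was so in this direction for 22.1% of genes, and the fitted log2 fold change was -1.09 ± 0.12. Lineage-traced crypt cells had 88.7 and 83.8 CPM in WT and 55.3 and 26.8 CPM in the libraries labelled Setdb1-KO (log2 fold change -1.13 ± 0.28), again without overlap (12.4% of genes) but with a wide gap between the 2 KO libraries. Over all kept barcodes the Lgr5+ values were 93.3 and 88.0 CPM in WT and 60.8 and 50.8 CPM in KO (-0.69 ± 0.08).

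Snhg1 in crypt cells was at 218 and 179 CPM in Lgr5+WT and at 267 and 297 CPM in Lgr5+Setdb1KO (log2 fold change 0.54 ± 0.10). In lineage-traced crypt cells it was at 81.0 and 79.3 CPM in WT and at 147 and 144 CPM in the libraries labelled Setdb1-KO (0.86 ± 0.28). The KO libraries were above the WT libraries in both experiments (23.7% and 20.5% of genes), although the difference in Lgr5+ cells was smaller than the gap of Neat1. Without the second lineage-traced WT library the crypt values were -1.17 for Neat1 and 0.85 for Snhg1. The rule that chose the genes used this contrast, so nothing is read from the calls: edgeR called Neat1 and Snhg1 among the 8 in Lgr5+ crypt cells (1.48% of all genes) and over all kept Lgr5+ barcodes (2.69%), Neat1 in lineage-traced crypt cells (1.82%), and Neat1 and Snhg1 over all kept lineage-traced barcodes (8.64%). With either WT library of the experiment left out, the calls over all kept Lgr5+ barcodes and the call in lineage-traced crypt cells were lost, and in Lgr5+ crypt cells both were lost without the second WT library. With any 1 library left out the fold changes stayed between -0.77 and -0.63 for Neat1 and between 0.35 and 0.63 for Snhg1 over all kept Lgr5+ barcodes, and between -1.53 and -0.77 for Neat1 in lineage-traced crypt cells.

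**Figure D3:**
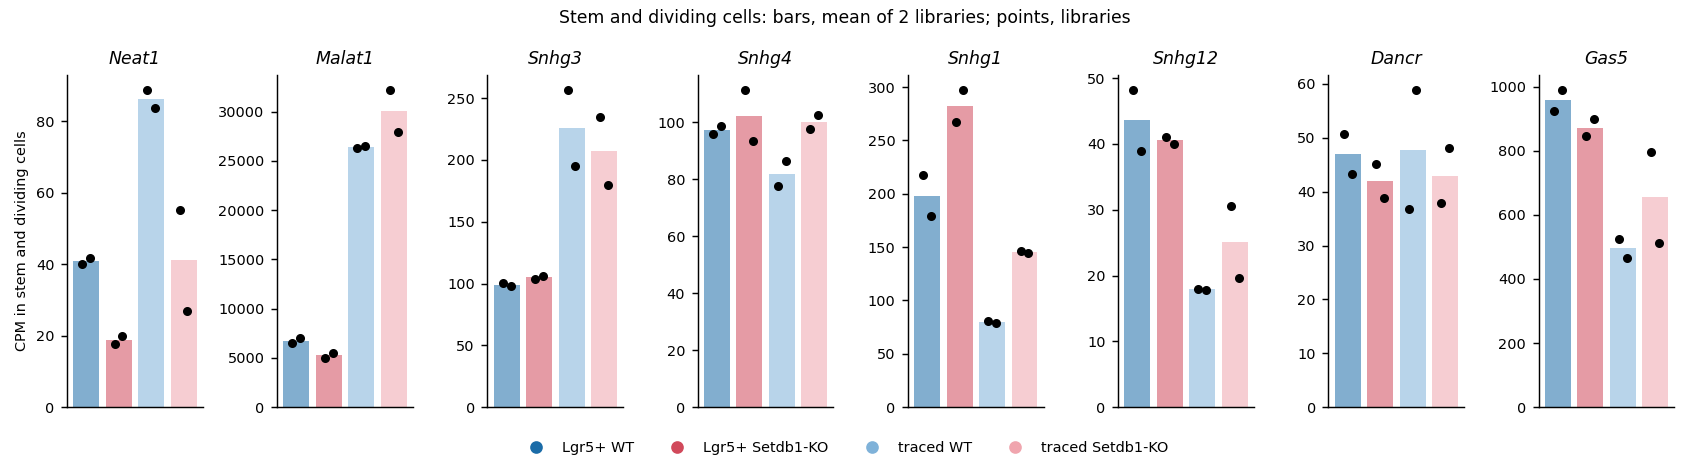
CPM of the 8 genes in stem and dividing cells, 1 point per library with the mean of the 2 libraries as a bar, WT beside Setdb1-KO in each experiment. Neat1 is lower in KO (18.8 against 40.9 CPM in Lgr5+ cells) and Snhg1 higher (282 against 198 CPM), while the groups of the other genes overlap or differ by less.

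The difference in Neat1 was seen in class after class. In the Lgr5+ experiment both KO libraries were below both WT libraries in 7 of 7 classes, with log2 ratios of mean CPM from -1.47 in stem cells to -0.23 in enteroendocrine cells. The share of all genes that separated in that direction was 24.8% in stem, 20.7% in dividing, 22.1% in goblet, 44.9% in Paneth, 19.7% in tuft and 17.9% in enteroendocrine cells and 18.4% in enterocytes. In the lineage-traced experiment this held in 6 of 7 classes, and tuft cells overlapped. The ratios ran from -2.81 in enterocytes to -0.28 in Paneth barcodes. There the shares of all genes were 12.1% in stem, 13.9% in dividing, 8.87% in goblet, 1.9% in Paneth, 9.19% in tuft and 18.3% in enteroendocrine cells and 28.3% in enterocytes. Snhg1 was above WT in 5 of 7 Lgr5+ classes, from 0.42 in stem to 1.55 in enterocytes, and overlapped in Paneth and enteroendocrine cells. All genes separated upwards in 20.8% of cases in stem, 24.4% in dividing, 13.6% in goblet, 0.776% in Paneth, 15.4% in tuft and 16.1% in enteroendocrine cells and 23.3% in enterocytes. In the lineage-traced experiment Snhg1 was above WT in 7 of 7 classes, at 0.86 in stem, 0.85 in dividing, 1.04 in goblet cells and 1.12 in enterocytes. There the shares of all genes were 26.0% in stem, 18.1% in dividing, 33.4% in goblet, 91.8% in Paneth, 27.0% in tuft and 17.9% in enteroendocrine cells and 31.9% in enterocytes. The lineage-traced tuft and enteroendocrine classes had no Snhg1 UMI in at least 1 WT library, so no ratio is given for them. In the other 5 classes Snhg4 was above WT in 5, Malat1 and Gas5 in 4, Snhg12 in 3, and Dancr and Snhg3 in 2, while Malat1 was below WT in enterocytes (-0.29), with as few as 1 UMI of Snhg12 and 3 of Dancr in a library where these were above. The background was highest in lineage-traced Paneth barcodes, and the part of Paneth transcripts in these differences was not tested. Some of these differences were also seen in barcodes of 100 to 300 UMIs, too few to be kept. There, with WT first, Neat1 was at 8.02 to 9.93 against 5.68 to 5.83 CPM in Lgr5+ libraries. Snhg1 was at 80.6 to 101 against 158 to 171 CPM. In lineage-traced libraries Snhg1 was at 17.1 to 32.7 against 77.6 to 89.0 CPM, and Neat1 overlapped. At 10 to 100 UMIs both genes overlapped in Lgr5+ and separated in lineage-traced libraries. How far such RNA entered the class values was not tested.

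**Figure D4:**
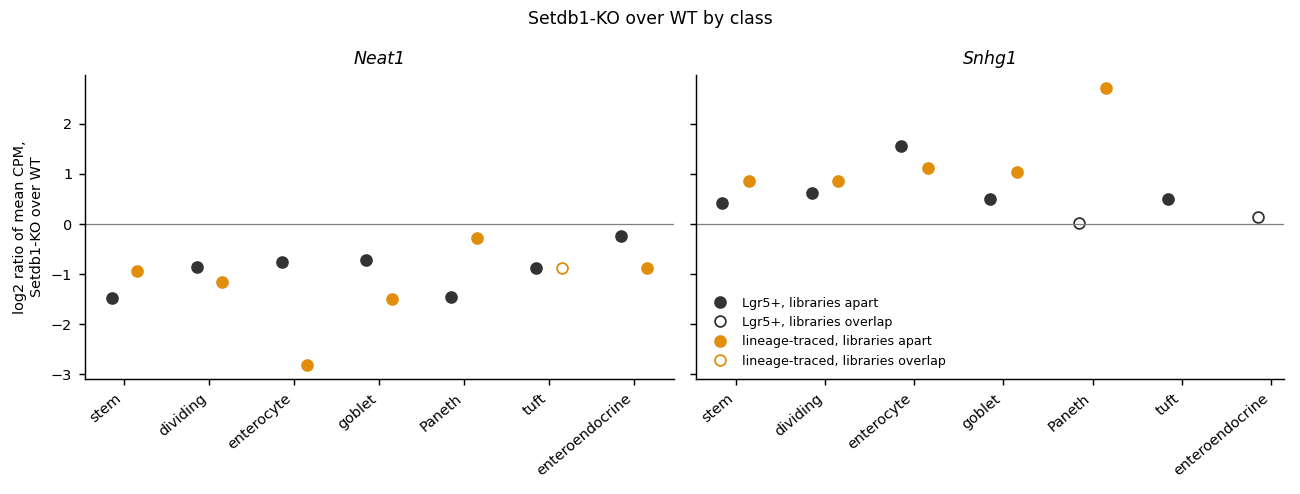
Log2 ratio of mean CPM, Setdb1-KO over WT, of Neat1 and Snhg1 in each of the 7 classes and both experiments, with open points where WT and KO libraries overlap. Neat1 ratios lie below 0 throughout, from -1.47 to -0.23 in Lgr5+ cells, and the Snhg1 ratios shown lie above 0, with lineage-traced tuft and enteroendocrine cells left out because a WT library had no Snhg1 UMI.

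The other hosts differed by less in Lgr5+ crypt cells. Gas5 in crypt cells was at 926 and 989 CPM in WT and at 845 and 900 CPM in KO (-0.11 ± 0.10), from -0.22 without the first to -0.0042 without the second Lgr5+WT library. Snhg3 was at 100 and 98.0 against 104 and 106 CPM (0.11 ± 0.08), and Snhg12, Dancr and Snhg4 lay between -0.14 ± 0.10 and 0.09 ± 0.10. The KO libraries were nonetheless below the WT libraries for Gas5 in crypt cells and in 3 of 7 Lgr5+ classes (to -0.55 in Paneth barcodes), for Dancr in 2 (to -0.90 in Paneth barcodes), and for both over all kept barcodes, against 22.1% of all genes in crypt cells and 24.8% over all kept barcodes. For Snhg3 the KO libraries were above the WT libraries in crypt cells, as were 23.7% of genes, and in dividing (0.13) and enteroendocrine cells (0.21), and for Snhg4 in stem cells (0.15). Malat1 was lower in KO crypt cells, at 6466 and 7029 CPM in WT against 4978 and 5539 CPM in KO (-0.34 ± 0.12), from -0.46 without the first to -0.22 without the second Lgr5+WT library, and over all kept barcodes it was at -0.01 ± 0.14. In lineage-traced crypt cells Malat1 was at 26285 and 26479 CPM in WT and at 32168 and 27956 CPM in the libraries labelled Setdb1-KO (0.19 ± 0.31). The 2 experiments thus gave opposite signs for Malat1 in crypt cells.

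Over all kept lineage-traced barcodes the size of the differences depended on the scaling. Gas5 was at 246 and 243 CPM in WT and at 671 and 458 CPM in the libraries labelled Setdb1-KO. The fold change fitted with edgeR's scaling was 0.65 ± 0.32, and with library totals alone it was 1.21, a scaling that moved the median of all genes to 0.54. Snhg1 was at 1.13 ± 0.27 with edgeR's scaling and 1.66 with totals, Neat1 at -1.72 ± 0.30 and -1.15. For 74.8% of genes in these sums both KO libraries were above both WT libraries. The shares of Paneth markers given above moved with this difference. Class make-up differed as well. Enterocytes were 1377 of 11742 kept barcodes in WT and 214 of 15055 in the libraries labelled Setdb1-KO. Crypt cells were 2241 and 4795 of them. How far class make-up entered the values over all kept barcodes was not tested. With Paneth transcripts left out of the counts, an alternative chosen after seeing the data, Gas5 was at 0.67, Snhg1 at 1.14 and Neat1 at -1.70 with edgeR's scaling. In crypt cells, where these markers were 4.92 and 6.56% of the UMIs in WT and 1.57 and 1.43% in KO, Gas5 was at 525 and 467 CPM against 798 and 514 CPM (0.38 ± 0.31), from 0.21 without the first to 0.56 without the second library labelled Setdb1-KO.

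In barcodes of 10 to 100 UMIs Malat1 was lower in both experiments, and Neat1 in the Lgr5+ one. Such barcodes come mostly from droplets without a cell. In the Lgr5+ libraries, with mt- genes left out, Malat1 was at 1905, 1909, 910 and 2996 CPM in these barcodes and at 7466, 7811, 7903 and 7105 CPM in the kept ones (WT first). It was lower in 4 of 4 libraries (log2 fold change -1.49 ± 0.22, edgeR adjusted p = 3.2e-09, 12.1% of all genes called, 6.93% lower). Neat1, with 1 to 17 UMIs per library in them, was also lower (-1.38 ± 0.29, edgeR adjusted p = 6.82e-05), but not past the threshold without the first Lgr5+Setdb1KO library (-1.05, edgeR adjusted p = 0.0582). None of the 6 hosts was called, with values from -0.29 (Dancr) to 0.35 (Gas5) and edgeR adjusted p from 0.233 to 0.836. Gas5 was at 580, 786, 561 and 601 CPM in barcodes of 10 to 100 UMIs and at 787, 847, 673 and 737 CPM in kept ones. Gas5 was called higher with relative log expression scaling (0.49, edgeR adjusted p = 0.0139) and with DESeq2 (0.49, DESeq2 adjusted p = 0.0146). In barcodes of 100 to 300 UMIs Gas5 (0.87), Snhg1 (0.53), Snhg3 (0.42) and Snhg4 (0.21) were called higher (edgeR adjusted p = 6.09e-30, 3.71e-10, 2.21e-06 and 0.0324). Far more of all genes were called in that band than at 10 to 100 UMIs, as counted under the processing alternatives, and the share called higher is not reported here. In the lineage-traced libraries Malat1 was lower as well (-1.07 ± 0.20, edgeR adjusted p = 6.06e-05, 3.65% of genes called, 2.91% lower), while Neat1 was at 0.19 (edgeR adjusted p = 0.707). At 100 to 300 UMIs Neat1 was called lower there (-0.46, edgeR adjusted p = 0.0346). Scaled by totals alone, all 8 members were called lower in the Lgr5+ low-UMI barcodes, but so were most of all genes tested. The median of all genes moved from -0.36 to -1.21. Relative to that median the hosts were above and Neat1 and Malat1 below.

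Barcodes with 10 to 50% mt- UMIs, a usual sign of a broken cell, went the other way for the nuclear RNAs. In the Lgr5+ libraries Neat1 was at 528, 555, 432 and 381 CPM in them, without mt- genes, against 95.5, 89.6, 61.9 and 51.6 CPM in kept barcodes. It was higher in 4 of 4 libraries (log2 fold change 1.75 ± 0.18, edgeR adjusted p = 8.5e-21, 29.7% of genes called, 8.94% higher and 20.7% lower). Malat1 was at 23314, 22996, 37477 and 26036 CPM there (0.89 ± 0.10, edgeR adjusted p = 4.53e-17), but was not called in barcodes with 5 to 10% mt- UMIs (0.56, edgeR adjusted p = 0.0615). Among the hosts Gas5 (-1.31 ± 0.15, edgeR adjusted p = 6.85e-18), Snhg1 (-1.08 ± 0.20, 5.69e-07) and Snhg4 (-0.62 ± 0.24, 0.037) were lower, the last resting on 7 to 31 UMIs per library and not called with any 1 of the 4 libraries left out, while Snhg3, Snhg12 and Dancr did not pass. With totals alone Dancr (1.00, edgeR adjusted p = 0.00427) and Snhg3 (0.62, edgeR adjusted p = 0.0197) were called higher. That scaling moved the median of all genes to 0.71, above Snhg3. Far more genes were called higher with it than with edgeR's scaling, as counted under the processing alternatives. The CPM of Snhg4 was itself higher in these barcodes in 4 of 4 libraries (86.2 to 108 against 75.6 to 85.0 CPM), so its sign rests on the scaling (0.28 with totals). Of these 5 genes, Neat1 (2.66, edgeR adjusted p = 7.2e-49), Malat1 (1.83, 2.72e-112) and Gas5 (-0.39, 0.0168) kept their call and sign when libraries were scaled by totals alone, where the median of all genes rose to 0.71 and Snhg1 was at -0.16 (edgeR adjusted p = 0.574). These barcodes number 36 to 177 per Lgr5+ library, have a median of 1408 to 1696 UMIs, and their mixture of cell classes was not separated. In the lineage-traced libraries 1 library had 3 such barcodes and the comparison, with 3 genes of 10190 called (0.0294%) and no member among them, could not be read.

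**Figure D5:**
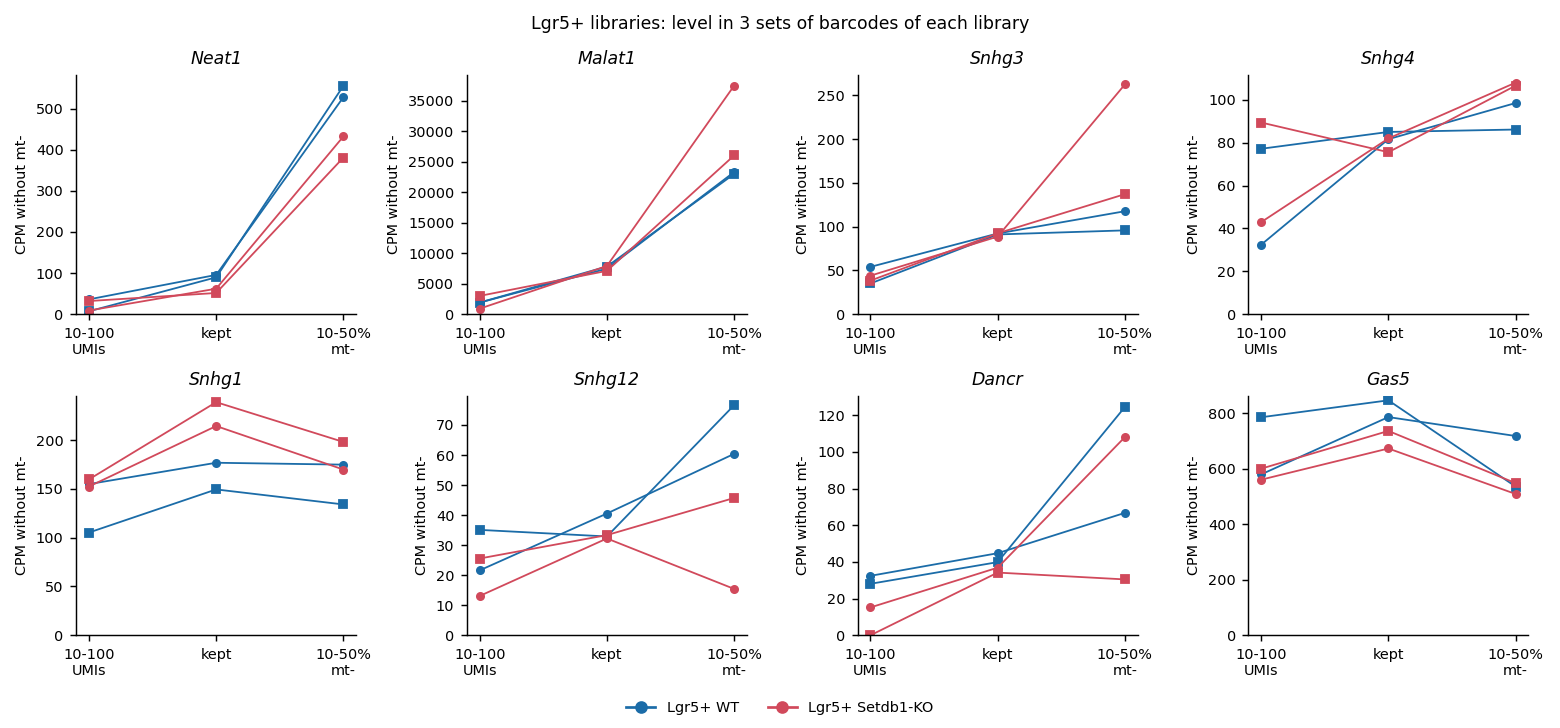
CPM without mt- genes in barcodes of 10 to 100 UMIs, kept barcodes and barcodes with 10 to 50% mt- UMIs of the 4 Lgr5+ libraries, a line per library. Neat1 and Malat1 rise from the first to the last set in every library, and Gas5 falls from kept to high-mt barcodes.

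Other genes of the same pathways were followed by lists, and their counts of called genes stand against 36.8% of all genes called higher and 36.6% lower in Lgr5+ crypt cells and 25.6% higher and 26.5% lower in dividing ones. Of 13 other snoRNA hosts tested in Lgr5+ cells, 11 were higher and 1 lower in crypt than in mature cells (median log2 0.96, all genes 0.01), led by Zfas1 (1.42) and Epb41l4aos (1.27), with Snhg18 lower (-0.55). In dividing against stem cells all 13 were lower (median -0.51, all genes -0.03), among them Zfas1 at -1.20. In lineage-traced cells 5 of 13 were, against 873 of all 9161 genes tested. The 17 snoRNP proteins, which bind the excised snoRNAs, were all higher in Lgr5+ crypt cells (median 1.30, Fbl 1.46), and 6 were higher and 6 lower in dividing cells. Of 20 translation genes with a TOP start, 20 were higher in crypt cells (median 0.72) and 18 lower in dividing cells (median -0.26). Paraspeckle proteins, the partners of Neat1, were higher in crypt cells in 11 of 12 cases (median 0.65, Nono 0.93), where Neat1 was low. None was called between genotypes in either experiment. In the lineage-traced one, 1055 of all 12205 genes were called over all kept barcodes and 181 of 9959 in crypt cells. On simulated data edgeR recovered 38.5% and 25% of 2-fold changes there, so the missing calls do not show unchanged levels. Nuclear speckle and splicing proteins were higher in 13 and lower in 1 of 16. Of the nonsense-mediated decay factors 3 were higher and 2 lower of 10. No gene of these lists was called between genotypes in the Lgr5+ experiment, where 2.69% of all genes were called over all kept barcodes and 1.48% in crypt cells. Among 13 other long noncoding RNAs, 5 were higher and 7 lower in Lgr5+ crypt cells (Kcnq1ot1 2.34, Mir22hg -3.82), and Mir22hg was lower in the lineage-traced libraries labelled Setdb1-KO (-2.81, edgeR adjusted p = 1.61e-05). Between those genotypes, 870 of 12205 genes were called lower over all kept barcodes and 134 of 9959 in crypt cells.

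The genes beside the members did not all move with them. Slc3a2, an amino acid transporter subunit whose gene lies 118 bases from Snhg1, was lower in crypt than in mature cells (-0.62 in Lgr5+, -0.70 in lineage-traced cells), where Snhg1 was higher. Between genotypes Slc3a2 was at 0.12 in Lgr5+ cells (edgeR adjusted p = 0.54) and lower over all kept barcodes of the libraries labelled Setdb1-KO (-0.85, edgeR adjusted p = 0.0233). There 870 of 12205 genes were called lower, and class make-up differed between the genotypes, as given above. Rcc1, next to Snhg3, was higher in crypt cells as Snhg3 was (1.74) and higher in dividing cells (0.71), where Snhg3 was lower. Zbtb37, which overlaps Gas5, was lower in dividing cells (-0.81), as Gas5 was, and reads from the overlap could be split between them by the authors' counting.

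Over 53 sums of a library and a class, the 4514 genes with enough counts were ranked by their Pearson correlation with each member on log2(CPM + 10) centred within each library, a description without a test because the sums share libraries and depth. Nearest to Neat1 were Tspan13 (0.90), Hdlbp (0.89) and Mia3 (0.86), and nearest to Malat1 were Myo6 (0.96), Gnai2 and S100a1 (both 0.95). Gas5 lay near 2410006H16Rik (0.95) and Rps21 (0.94), the latter a ribosomal protein gene, and Snhg4 was nearest to Ncl, 2410006H16Rik and Npm1 (0.91 each), of which Ncl and Npm1 encode nucleolar proteins. Snhg1 lay nearest to Ifitm2 and Cdk4 (0.94), Snhg3 to Bola2 and 2410006H16Rik (0.95), Snhg12 to Utp14a (0.84) and Dancr to Fads2 (0.86). The hosts correlated with each other at 0.71 to 0.95, Neat1 with Malat1 at 0.44, and Neat1 with the hosts at -0.22 to -0.16.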

How the data were processed

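The authors deposited unfiltered UMI counts per gene and barcode for 8 single-cell libraries, made with Cell Ranger 6.1.1 on mm10 according to the submitters' processing notes. The total RNA, chromatin and accessibility samples of the series were not used here. A class needed at least 3 of its marker UMIs, and their share of the barcode had to reach a fixed floor. The floor was 0.2% for stem and for dividing, 0.3% for tuft, 1% for enteroendocrine, 1.5% for enterocyte, 5% for goblet and 10% for Paneth. Where it was higher, 1.5 times the share in barcodes of 10 to 100 UMIs of that library was used instead. Mature classes went before dividing, and dividing before stem. No doublet caller was run, and an alternative left out barcodes with markers of more than 1 mature class. UMI counts were summed per library and class, and mt- genes were left out of the fits of low-UMI and high-mt barcodes. The sums were tested with edgeR 4.0.16 (quasi-likelihood, TMM scaling, Benjamini-Hochberg adjustment over all genes, threshold 0.05) in R 4.3.3, within an experiment. Comparisons within a library kept the library as a block. The study describes the 2 libraries of a group as independent biological replicates, and each pair differed by far more than sampling noise (chi-square per degree of freedom 22.4 to 77.3). At most 0.449% of kept barcodes were shared between 2 libraries. Precision of a class sum is limited by its UMIs. The members and lists were chosen with earlier results of these data known. Named beside the members were Setdb1, up to 2 called genes per list and direction with the smallest adjusted p, the nearest annotated genes, and up to 3 of the most correlated genes per member. A few items under this rule are not reported here. On simulated data, edgeR recovered 89.5% and 76.5% of 2-fold changes in dividing against stem cells (Lgr5+, 11786 genes, and lineage-traced, 9161 genes), 27.5% and 47.5% in low-UMI barcodes (12300 and 11522 genes), and 18% and 0% in high-mt barcodes (12445 and 10190 genes). Between genotypes it recovered 75% and 38.5% over all kept barcodes and 74.5% and 25% in crypt cells (Lgr5+ and lineage-traced). Alternatives were DESeq2 1.42.0, relative log expression scaling, no low-count filter, each library left out, the replicate number as a block, other UMI, gene and mt- limits, and totals without Malat1. Another 3 were chosen after seeing the data: classed barcodes only, no Paneth transcripts, and scaling by library totals alone.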

Additional observations from a re-analysis of the deposited data

Results flagged for a closer look

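The ratio of mean CPM between genotypes went opposite ways in the 2 experiments for 3 genes, with every Setdb1-KO library on one side of both WT libraries in one experiment and on the other side in the other. The difference between the experiments was not tested for any of them, and the lineage-traced libraries labelled Setdb1-KO did not show a lower Setdb1. For Malat1 the log2 ratio was -0.36 in Lgr5+ and 0.19 in lineage-traced crypt cells, -0.35 and 0.13 in stem cells, and -0.37 and 0.22 in dividing cells. For Dancr it was -0.25 and 0.84 over all kept barcodes, and -0.90 and 1.82 in Paneth barcodes. For Gas5 it was -0.21 and 1.21 over all kept barcodes, -0.55 and 2.51 in Paneth barcodes, and -0.49 and 2.35 in enteroendocrine barcodes. The last value rests on 6 Gas5 UMIs in lineage-traced WT. These ratios are scaled by totals alone, and both KO libraries were above both WT libraries for 74.8% of genes over all kept lineage-traced barcodes and for 91.8% in lineage-traced Paneth barcodes. The marker share that a Paneth barcode had to reach was set per library and was higher in lineage-traced WT, as given above. Of all genes at 20 CPM or more in both experiments, 21.1% over all kept barcodes, 46.7% in Paneth barcodes, 3.76% in crypt, 6.13% in stem, 2.96% in dividing and 3.58% in enteroendocrine cells separated downwards in the Lgr5+ and upwards in the lineage-traced experiment. Snhg4 in high-mt over kept barcodes, as a ratio of mean CPM without mt- genes, was 0.30 in Lgr5+ and -1.35 in lineage-traced libraries, not tested. The second value rests on 0 to 3 Snhg4 UMIs per library, and the fitted value in the Lgr5+ libraries was of the other sign (-0.62).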

How the results depend on the processing

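Neat1 stayed lower and Snhg1 higher in Setdb1-KO under every alternative run, with Neat1 between -2.02 and -0.63 and Snhg1 between 0.35 and 1.66 over the 4 comparisons. In crypt against mature cells, scaling by library totals turned the sign in lineage-traced cells of Malat1 (0.065), Snhg18 (0.034), Srsf5 (0.23) and Smg1 (0.14).

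The number of genes called was less steady. Between genotypes over all kept Lgr5+ barcodes it was 367, against 1472 with no low-count filter, 74 with the replicate block, 661 with totals alone and 48 to 502 with 1 library left out (lowest without the first Lgr5+WT library). In lineage-traced barcodes it was 1055, against 2600 with the replicate block, 3796 with totals (3314 higher, against 185) and 591 to 2462 with 1 library left out (highest without the first library labelled Setdb1-KO). In Lgr5+ crypt cells it was 185, against 879 with no filter, 305 with the replicate block, 300 with totals and 8 to 633 with 1 library left out (lowest without the second Lgr5+WT library). In lineage-traced crypt cells it was 181, against 100 with DESeq2 and 83 to 995 with 1 library left out. In dividing against stem cells DESeq2 called 3807 (Lgr5+) and 998 (lineage-traced) genes against 6133 and 2117, and 1085 to 2042 lineage-traced genes were called with 1 library left out. In low-UMI barcodes 1491 Lgr5+ genes became 929 with DESeq2, 6589 in barcodes of 100 to 300 UMIs, 7208 with totals (233 higher) and 580 to 1367 with 1 library left out. The 420 lineage-traced genes became 1376 and 2783 (24 higher) under the latter choices and 68 to 764 with 1 library left out. In high-mt barcodes 3693 Lgr5+ genes became 1642 with the lower UMI limit doubled, 4258 with totals (3559 higher, against 1113) and 2298 to 3268 with 1 library left out. The 3 lineage-traced genes (Nr1i3, Slc2a2 and Tmprss15, named after their values were seen; 1459 at an unadjusted p under 0.05) became 117 with relative log expression, 20 with DESeq2, 225 at 5 to 10% mt-, 143 with totals and 0 to 155 with 1 library left out. Doubling the UMI limit there gave no value, since 1 library then had no UMIs. The cause of these changes was not tested.

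Among members in low-UMI Lgr5+ barcodes, signs turned for Snhg12 with DESeq2 (0.028) and without the first Lgr5+Setdb1KO library (-0.21 to 0.020 with 1 library left out), Snhg4 without the second (-0.035), Snhg3 (0.42) and Dancr (0.070) at 100 to 300 UMIs, and Snhg4 (-0.65), Snhg1 (-0.44) and Gas5 (-0.28) with totals. In the lineage-traced ones they turned for Snhg12 without the first library labelled Setdb1-KO (-0.40 to 0.043 with 1 library left out), Gas5 without either WT library (-0.068 to 0.29 with 1 library left out), Neat1 (-0.46), Snhg3 (-0.070), Snhg4 (-0.17) and Dancr (-0.026) at 100 to 300 UMIs, and Neat1 (-0.22), Snhg3 (-0.033), Snhg4 (-0.19), Snhg1 (-0.076) and Gas5 (-0.32) with totals. Dancr (0.66) was called there with relative log expression (0.72), without Paneth transcripts (0.68) and without the first library labelled Setdb1-KO (0.81). In high-mt Lgr5+ barcodes they turned for Snhg3 and Snhg12 with relative log expression (0.045 and 0.027) and DESeq2 (0.059 and 0.0056), Dancr without the second Lgr5+WT library (-0.15), Snhg3 at 5 to 10% mt- (0.11), and Snhg3 (0.62), Snhg4 (0.28) and Snhg12 (0.59) with totals. At 5 to 10% mt- Malat1 was not called (0.56, edgeR adjusted p = 0.0615).

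Deviations from the group means of libraries with the same replicate number correlated at -0.06 and 0.12 (Lgr5+, all and crypt) and 0.58 and 0.24 (lineage-traced). With 2 pairs the numbers do not show a pairing, so the replicate block is an alternative only. With it, Setdb1 over all kept Lgr5+ barcodes was at -0.86 and not called (edgeR adjusted p = 0.0937). With 2 libraries per group, fold changes of the thinly counted hosts in lineage-traced cells are imprecise.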
